A study of Mus musculus with 2 samples.

Results

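The regions described here are the H3K36me2 peaks that the authors' annotation gave to *Vil1*, *Mt1* or *Mt2* in mouse colon. There were 6 of them among 43494 peaks in all, namely 2 of 19976 in the *Nsd2* fl/fl list and 4 of 23518 in the *Nsd2* ΔIE list. *Vil1* had 1 peak in *Nsd2* fl/fl colon and 3 in *Nsd2* ΔIE, *Mt1* had 1 peak in each, and *Mt2* had none in either. The 3 genes were chosen because the signal per bp of the peaks at *Vil1* and *Mt1* stood far above the rest of the lists. Their signal is therefore given as a description, with no test. The choice held for the peak over the *Vil1* start and for the *Mt1* peak in both libraries, whereas 2 of the 3 *Nsd2* ΔIE peaks at *Vil1* lay below the median of their list and *Mt2* was not listed.

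The study compared control mice, labelled NSD2fl/fl, whose *Nsd2* alleles are floxed but intact, with mice labelled NSD2∆IE, in which Cre removes *Nsd2* from the intestinal epithelium. Both were C57BL/6J males that started a high-fat cholesterol diet (HFCD) at 7 to 8 weeks of age, for 18 weeks according to the methods and 16 weeks according to the deposited design text. There was 1 colon library per genotype, made by CUT&Tag, in which an antibody tethers the transposase Tn5 to chromatin so that the DNA near the mark is cut and sequenced. Colon tissue holds epithelium together with immune and stromal cells, and the sources used here do not say how many mice a library holds. Cre was driven by the villin promoter (Villin-Cre mice), that is the promoter of *Vil1*. Whether the NSD2fl/fl mice also carried the Cre transgene is not given in the sources used here.

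H3K36me2 is dimethylation of lysine 36 of histone H3, placed by NSD2 and related enzymes, mostly in broad domains over genes and the intergenic space near them. *Vil1* encodes villin, an actin-bundling and severing protein of the microvilli that form the brush border of intestinal epithelial cells. *Mt1* and *Mt2* encode metallothioneins, small cysteine-rich proteins that bind zinc and copper. Both are induced by zinc through the transcription factor MTF1, which binds metal response elements near their starts.

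The promoter windows of the 3 genes show the sequence on which the peaks do or do not lie. Each holds 250 bases before and 50 bases from the annotated transcript start, on the plus strand of GRCm38.p6 as given by RefSeq, at chr1:74409134-74409433 for *Vil1*, chr8:94178839-94179138 for *Mt1* and chr8:94172368-94172667 for *Mt2*. The peak lists use another build, so these positions cannot be set against those of the peaks directly, and where a window is said to lie in a peak, the same distances from the start of NM_009509.2 (*Vil1*) or NM_013602.3 (*Mt1*) in the lists were used. The *Mt1* gene is longer in the GRCm38.p6 table, 1445 bp against 1239 bp in the lists, and that table lists a second transcript for it. From the start base of the printed *Mt1* window to the gene end in that table is 1239 bp, the length in the lists. Capitals mark the core of the metal response element, searched as TGCACNC and TGCGCNC on both strands.
Vil1: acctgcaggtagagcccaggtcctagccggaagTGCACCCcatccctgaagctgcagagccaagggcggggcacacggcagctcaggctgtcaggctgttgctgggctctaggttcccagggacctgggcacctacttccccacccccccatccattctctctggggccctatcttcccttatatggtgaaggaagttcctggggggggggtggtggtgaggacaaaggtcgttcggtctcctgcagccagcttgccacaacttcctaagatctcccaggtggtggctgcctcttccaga
Mt1: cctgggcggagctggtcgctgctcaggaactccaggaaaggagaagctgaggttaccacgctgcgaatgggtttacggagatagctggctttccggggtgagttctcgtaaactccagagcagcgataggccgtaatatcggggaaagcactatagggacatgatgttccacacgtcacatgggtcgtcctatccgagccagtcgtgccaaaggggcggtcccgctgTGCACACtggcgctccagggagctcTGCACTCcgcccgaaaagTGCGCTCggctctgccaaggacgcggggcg
Mt2: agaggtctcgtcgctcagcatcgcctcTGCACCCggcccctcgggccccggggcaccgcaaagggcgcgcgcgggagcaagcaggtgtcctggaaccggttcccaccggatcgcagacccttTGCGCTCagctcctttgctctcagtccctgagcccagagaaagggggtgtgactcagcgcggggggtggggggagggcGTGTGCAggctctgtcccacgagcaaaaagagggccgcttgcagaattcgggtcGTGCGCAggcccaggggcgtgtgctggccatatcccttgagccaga
The *Mt1* window held 3 cores, at -23, 2 and 20 bases from the start base counted as 0, and the *Mt2* window held 4. The *Vil1* window held 1, at -217. Of all 32851 promoter windows in the table, 25.7% held at least 1 core and 1.97% at least 3. CG pairs numbered 24 in both metallothionein windows and 5 at *Vil1*, against a median of 7 over all windows. The GC box GGGCGG, on either strand, was found 3 times at *Mt1*, once at *Vil1* and not at *Mt2*, and was present in 35.7% of all windows. TATAAA was in none of the 3 windows and in 13.6% of all. Only the windows were searched, so an element further from the annotated start would not be found. Where transcription starts in colon was not measured. A match is a match of letters, and no factor's binding was measured.

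The summed signal that the authors gave each peak was divided by its width to obtain a signal per bp, which reads as the mean coverage of the peak. Its median was 6.14 in *Nsd2* fl/fl colon and 6.32 in *Nsd2* ΔIE, with 99% of the peaks below 9.62 and 10.6. The lists began at a summed signal of 21783 and 16571, so that a peak below this limit was not listed however high its signal per bp. Sequencing depth is unknown, and with 1 library per genotype no difference between the genotypes has a replicate check.

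At *Vil1*, the *Nsd2* fl/fl library had a peak that spanned 74441213 to 74454396 of chromosome 1, as the lists number it. It was 13184 bp wide with a summed signal of 855130, or 64.9 per bp, which is 10.6 times the list median. In the *Nsd2* ΔIE library the corresponding peak ran from 74440976 to 74454454, was 13479 bp wide and had a summed signal of 1035706, or 76.8 per bp and 12.2 times the list median. Both peaks ranked 8th in signal per bp and 6th in summed signal in their lists. They held 0.131% and 0.181% of all listed signal in 0.0128% and 0.0153% of the listed length.

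*Vil1* lies on the plus strand from 74448543 to 74474719 in the lists, with 20 exons in transcript NM_009509.2. The strong peak began 7330 bp upstream of the transcription start site (TSS) in *Nsd2* fl/fl colon and 7567 bp upstream in *Nsd2* ΔIE. It ended 5853 bp and 5911 bp downstream of the TSS, so that it covered 22.4% and 22.6% of the gene and left the rest outside. The whole promoter window lay inside it in both libraries. The stretch of highest signal, which the peak names give in brackets, was 866 bp downstream of the TSS in *Nsd2* fl/fl colon and 5105 bp downstream in *Nsd2* ΔIE. These stretches were 4239 bp apart, although the edges of the peak hardly moved.

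The remainder of the *Vil1* gene differed in what was listed. The *Nsd2* ΔIE library had a peak of 3133 bp annotated to exon 5, with 5.52 per bp, and one of 6860 bp annotated to exon 13, with 5.95 per bp. These are 0.873 and 0.942 times the list median. No peak was listed there in *Nsd2* fl/fl. This was common, as the 19976 and 23518 peaks of the lists formed only 7465 overlapping pairs. Most *Nsd2* ΔIE peaks thus overlapped no *Nsd2* fl/fl peak. The exon 5 peak had a summed signal of 17293, only 1.04 times the lowest in its list and below the lowest of the *Nsd2* fl/fl list, so a region of equal deposited signal could not have entered the *Nsd2* fl/fl list. The exon 13 peak, with 40846, was above that limit.

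**Figure D1:**
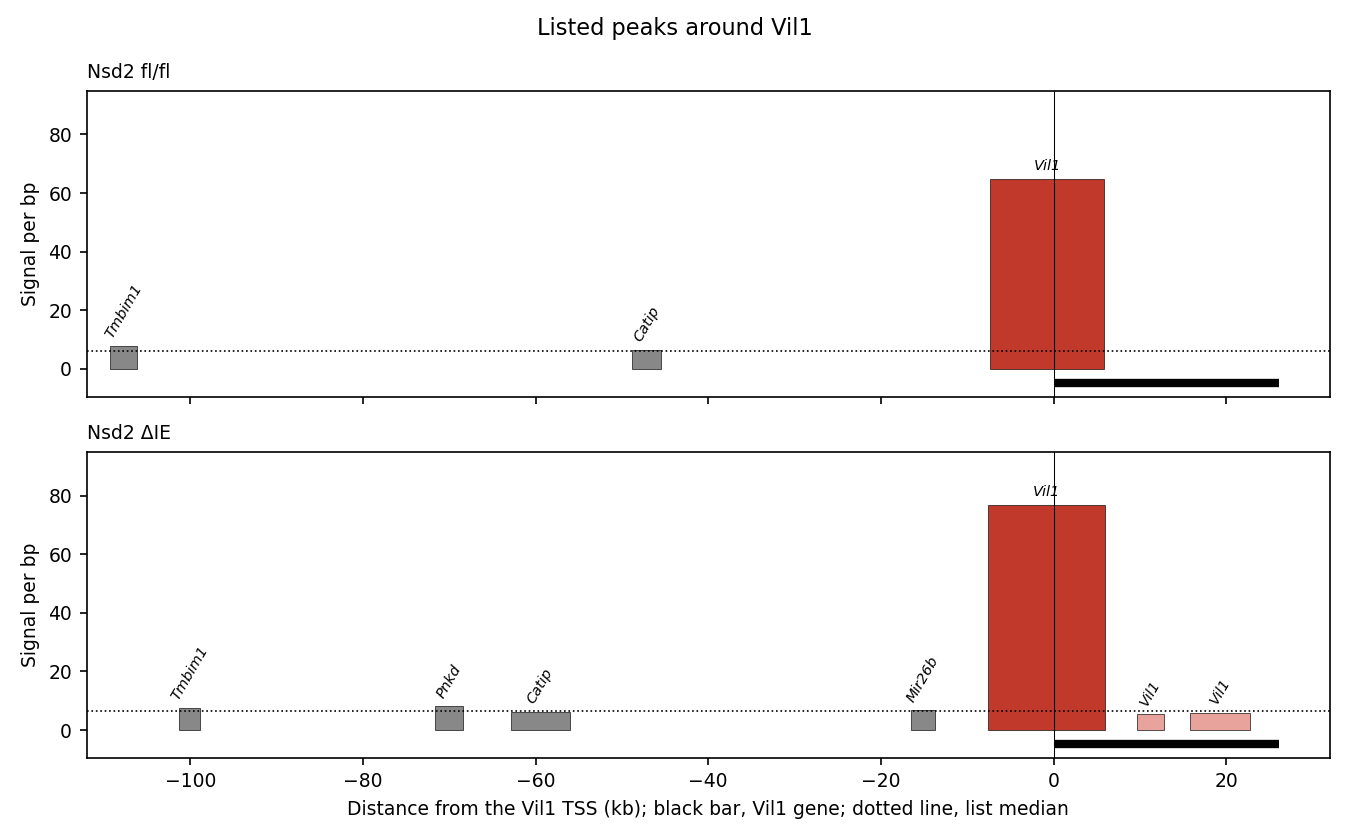
Listed peaks around *Vil1* in the *Nsd2* fl/fl (top) and *Nsd2* ΔIE (bottom) library; the x axis is the distance from the *Vil1* TSS in kb, bars span each peak and rise to its signal per bp, the black bar is the *Vil1* gene and the dotted line the list median. The peak over the TSS reaches 64.9 and 76.8 per bp, while every other bar stays at or below 8.24.

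Within 100 kb of the strong *Vil1* peak, the *Nsd2* fl/fl list had 2 other peaks. One at the promoter of *Catip*, a gene needed for cilia, had 6.59 per bp, and one near the start of *Tmbim1*, which encodes a membrane protein of the BAX-inhibitor motif family, had 7.78. The strong peak was thus 9.02 times the median of its neighbours and 8.33 times the highest. The *Nsd2* ΔIE list had 6 neighbours, including the 2 weaker *Vil1* peaks, with 5.52 to 8.24 per bp and 2374 bp to 6860 bp wide. The excess over their median was 11.8 times and over the highest, in an intron of *Pnkd*, 9.33 times. The nearest upstream neighbour in *Nsd2* ΔIE was a peak of 2850 bp at *Mir26b*, the gene of microRNA-26b, 6.14 kb away and with 6.84 per bp. In *Nsd2* fl/fl the nearest was that of *Catip*, 38.1 kb away, and downstream no peak followed for 173 kb.

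At *Mt1*, the *Nsd2* fl/fl library had a peak on chromosome 8 from 94905335 to 94907272, 1938 bp wide, with a summed signal of 83473. This is 43.1 per bp, or 7.01 times the list median, and ranked 12th in the list. In the *Nsd2* ΔIE library the peak ran from 94905812 to 94907399, was 1588 bp wide and had a summed signal of 115536. This is 72.8 per bp, or 11.5 times the list median, and ranked 9th. By summed signal the *Mt1* peaks ranked only 285th and 23rd, since they were narrow.

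*Mt1* lies on the plus strand from 94905717 to 94906955, a length of 1239 bp. The *Nsd2* fl/fl peak began 382 bp upstream of the TSS, covered the whole gene and ended 317 bp beyond it. The *Nsd2* ΔIE peak began 95 bp downstream of the TSS, covered 92.3% of the gene and ended 444 bp beyond it. As a result, the promoter window printed above was wholly inside the *Nsd2* fl/fl peak, and in *Nsd2* ΔIE none of its bases was, as the peak began 45 bp after the window. This contrast rests on the annotated start base of NM_013602.3, and no other start was tried. The authors' annotation called both promoter peaks. The stretch of highest signal lay 1144 bp downstream of the TSS in *Nsd2* fl/fl, 92 bp before the end of the gene, and 755 bp downstream in *Nsd2* ΔIE, 481 bp before the end.

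**Figure D2:**
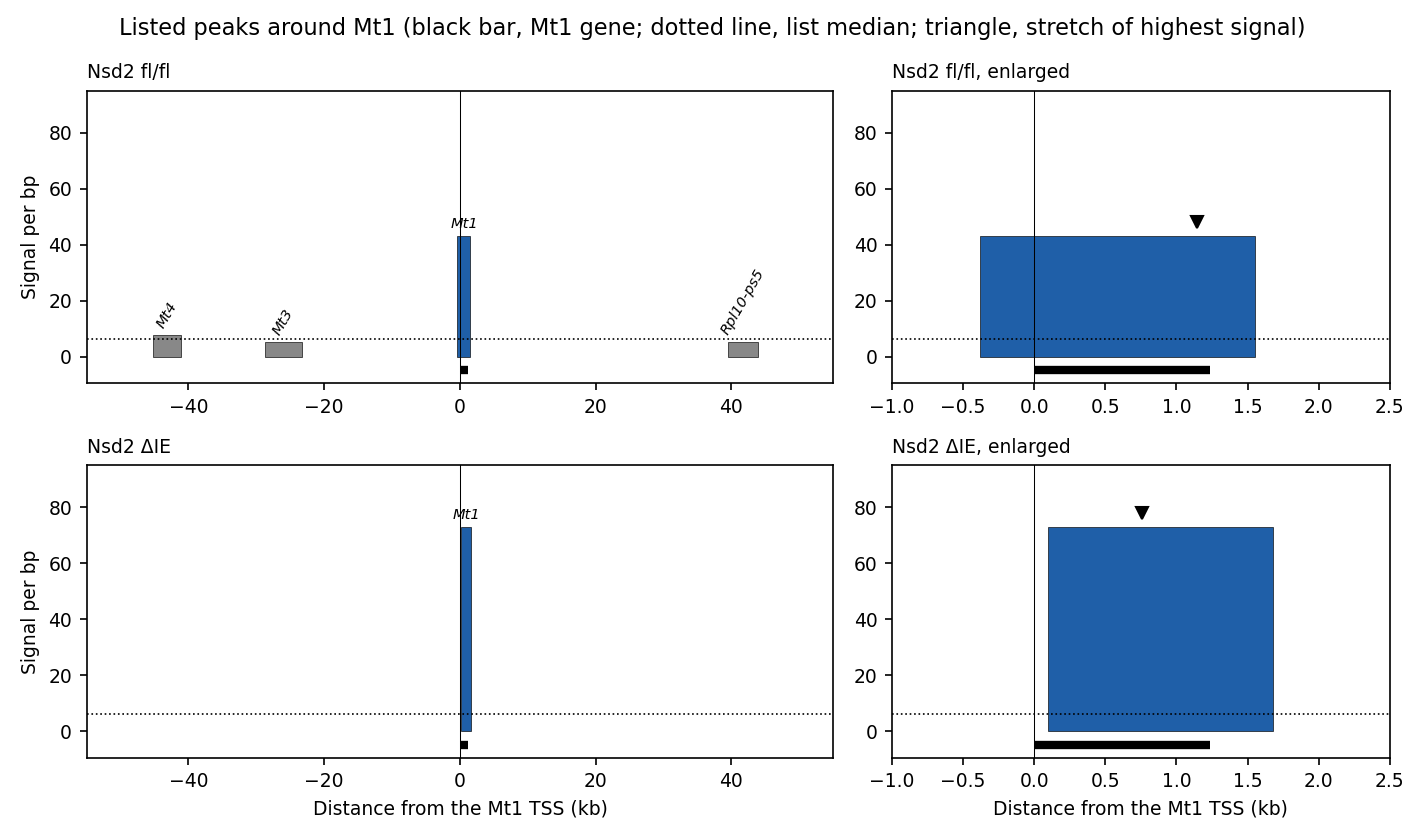
Listed peaks around *Mt1* in the *Nsd2* fl/fl (top) and *Nsd2* ΔIE (bottom) library, over 55 kb to either side (left) and enlarged (right); the x axis is the distance from the *Mt1* TSS in kb, bars span each peak and rise to its signal per bp, the black bar is the *Mt1* gene, the dotted line the list median and the triangle the stretch of highest signal. The peak stands at 43.1 and 72.8 per bp and has listed neighbours in *Nsd2* fl/fl only. It starts 382 bp before the annotated TSS in *Nsd2* fl/fl colon and 95 bp after it in *Nsd2* ΔIE.

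*Mt2* lies next to *Mt1*, its start 6471 bp upstream of the *Mt1* start in GRCm38.p6, and had no peak of its own. In *Nsd2* fl/fl no peak was listed over the 22.9 kb between the *Mt3* peak and the *Mt1* peak, and in *Nsd2* ΔIE none was listed over the 126 kb upstream of *Mt1*. An absent peak means that no listed region carried the gene, not that the mark was absent. The other metallothionein genes of the cluster are *Mt3*, known mainly from the brain, and *Mt4*, known from stratified squamous epithelium. Both had a promoter peak in *Nsd2* fl/fl, of 5407 bp with 5.08 per bp at *Mt3* and of 4181 bp with 7.57 per bp at *Mt4*. Neither had a peak in *Nsd2* ΔIE. The same held for most of the 19976 *Nsd2* fl/fl peaks, as the lists formed only 7465 overlapping pairs. Together with a peak of 5.26 per bp at the pseudogene *Rpl10-ps5*, the *Mt3* and *Mt4* peaks were the 3 neighbours of *Mt1* within 100 kb in *Nsd2* fl/fl. The *Mt1* peak had 8.20 times their median. In *Nsd2* ΔIE there was no neighbour within 100 kb. Within 200 kb there were 5, with a median of 6.08 per bp, and the *Mt1* peak had 12.0 times that level.

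The *Vil1* and *Mt1* peaks had opposite widths. The *Vil1* peak was wider than 98.9% of the *Nsd2* fl/fl and 99.9% of the *Nsd2* ΔIE peaks. The *Mt1* peak was wider than 13 and 54 peaks of these lists only. Width bears on the signal per bp of what could be listed. A peak of the width at *Mt1* needed 11.2 per bp in *Nsd2* fl/fl colon and 10.4 in *Nsd2* ΔIE to reach the lowest summed signal of its list, so narrow peaks of median signal could not appear. The 16 other *Nsd2* fl/fl peaks under 2 kb had a median of 19.3 per bp, and the 502 others in *Nsd2* ΔIE had 9.75. The *Mt1* peaks were above the requirement by 3.83 and 6.97 times. At the width of the *Vil1* peak only 1.65 and 1.23 per bp were needed. Among the other peaks of 10 kb or more on the chromosomes, 674 and 161 in number, the medians were 6.44 and 6.76 per bp. *Sfi1*, which encodes a centrin-binding protein of the centrosome, was the only one of them above *Vil1*, with 121 and 110 per bp, and *Mroh2a* came next below with 29.6 and 28.8.

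**Figure D3:**
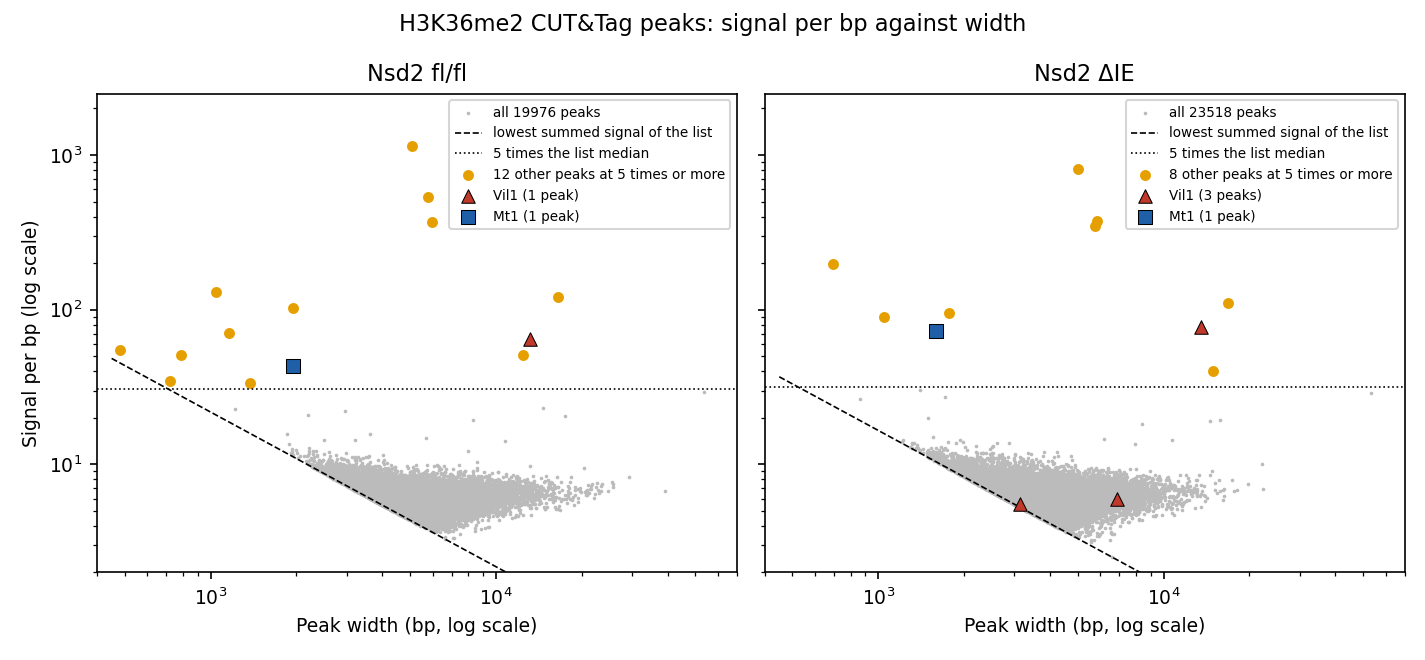
Signal per bp against width, both on log scales, for every peak of the *Nsd2* fl/fl (left) and *Nsd2* ΔIE (right) list; the dashed line is the lowest summed signal of the list and the dotted line 5 times the median signal per bp. The strong *Vil1* peak (triangle) and the *Mt1* peak (square) lie above the dotted line at opposite ends of the width range, and the 2 further *Vil1* peaks of *Nsd2* ΔIE lie within the mass of peaks.

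A level of 5 times the list median was reached by 14 *Nsd2* fl/fl peaks, or 0.0701% of the list, and by 10 *Nsd2* ΔIE peaks, or 0.0425%. Since the genes were chosen on this value, nothing is read from their place among them. The *Nsd2* fl/fl set comprised 9 peaks on chromosomes 1 to 19 or X, 2 on mitochondrial DNA and 3 on unplaced contigs, and the *Nsd2* ΔIE set 6, 2 and 2. The peak just inside this level had 33.6 and 40.4 per bp, and the one just outside 29.6 and 30.0. All 10 *Nsd2* ΔIE peaks overlapped a *Nsd2* fl/fl peak that also reached the level. Besides *Vil1* and *Mt1*, these were peaks at *Sfi1*, *Gm36876*, *Gm4252* and LOC118568312 on the chromosomes, a pair at LOC118568479 on an unplaced contig, and the mitochondrial peaks annotated to *ND1* and *CYTB*. The mitochondrial peaks, on DNA that carries no histones, had the highest signal near *ND1*, 1152 and 812 per bp. What else these regions have in common with *Vil1* and *Mt1*, and the signal of a library made without the antibody, was not tested.

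When each peak was set against the median of its neighbours within 100 kb, 5 of 18067 *Nsd2* fl/fl peaks with a neighbour (0.0277%) and 4 of 21498 *Nsd2* ΔIE peaks (0.0186%) reached 5 times. *Vil1* was 3rd and *Mt1* 4th in *Nsd2* fl/fl, and *Vil1* was 4th in *Nsd2* ΔIE. The median over all peaks was 0.996 and 0.997. This measure uses the same signal as the choice of the genes.

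By the summed absolute log2 differences in both libraries, the peak of a gene other than *Vil1* and *Mt1* that was most like that of *Vil1* in signal over the list median was at *Gm4252* on chromosome 17, with 11.5 times in *Nsd2* fl/fl colon and 14.2 times in *Nsd2* ΔIE and a difference of 0.36. It was only 1158 bp and 1047 bp wide and intergenic. Among such other genes *Gm4252* was also the closest to *Mt1*, with a difference of 1.03, followed for each by the pair at LOC118568479. This likeness rests on 2 libraries.

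Position was not used to choose the genes. Among peaks that overlap exactly 1 peak of the other list, 5816 pairs could be compared, and the larger of the start and end shifts had a median of 2434 bp. At *Vil1* the start differed by 237 bp and the end by 58 bp. Both edges were as close in 97 pairs, or 1.67% (95% Wilson interval 1.37% to 2.03%, for counting error only). The *Vil1* peaks shared 97.8% of their joint length, against a median of 45.6%. At *Mt1* the start differed by 477 bp and the end by 127 bp, and 4.73% of pairs (4.21% to 5.30%) were as close. Overlapping peaks cannot shift by more than their width, here 1938 bp and 1588 bp. The *Mt1* shift thus had to lie below the median, and its share was not set against pairs of such width. The *Mt1* peaks shared 70.8% of their joint length, which 15.8% of pairs reached. An edge shift within 500 bp, which *Vil1* and *Mt1* both met, was found in 5.14% of all pairs. It was found in 8 of the 10 pairs at 5 times the median or more in both lists. Of the 26 pairs of at least 10 kb in both lists, 6 had both edges within 500 bp, and 15.4% were as close as *Vil1*. That set was chosen after the values were seen.

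**Figure D4:**
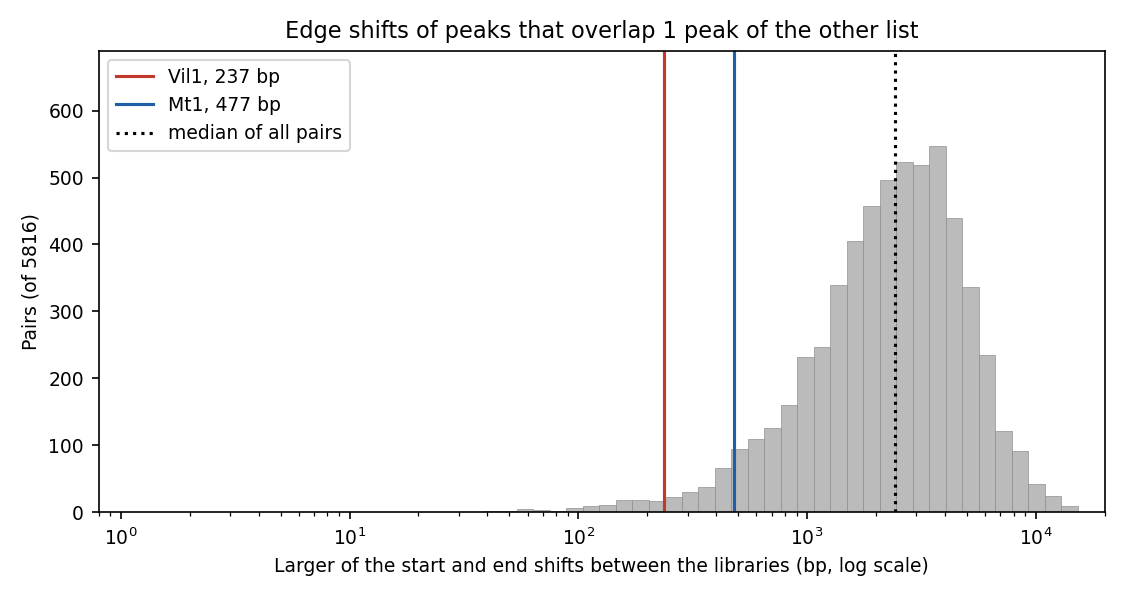
Histogram of the larger of the start and end shifts, in bp on a log scale, over the 5816 pairs in which each peak overlaps 1 peak of the other library; vertical lines mark *Vil1*, *Mt1* and the median of all pairs. The shifts of 237 bp at *Vil1* and 477 bp at *Mt1* lie in the lower tail, below the median of 2434 bp. At *Mt1* this was fixed by width, since overlapping peaks of 1938 bp and 1588 bp cannot shift by that much.

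Divided by the median of its list, the signal per bp at *Vil1* was 1.15 times as high in *Nsd2* ΔIE as in *Nsd2* fl/fl. Of all pairs, 26.6% had a ratio at least as high, and 90% of pairs lay between 0.685 and 1.48. The ratio at *Mt1* was 1.64, a log2 ratio of 0.72, and 1.99% of pairs reached it. A log2 ratio of 0.5 or more was found in 7.15% of pairs and one of -0.5 or less in 6.91%. The *Mt1* peak was 0.819 times as wide in *Nsd2* ΔIE, and its ratio by summed signal was 1.38; the part of the width in the ratio was not tested. Of the other strong pairs on the chromosomes, *Sfi1* had a ratio of 0.885, LOC118568312 of 0.987, *Gm4252* of 1.23 and *Gm36876* of 1.49, whereas the mitochondrial pairs had 0.628 and 0.685. The spread of these ratios between 2 libraries of 1 genotype is unknown, so that no difference between *Nsd2* ΔIE and *Nsd2* fl/fl is shown at either gene.

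**Figure D5:**
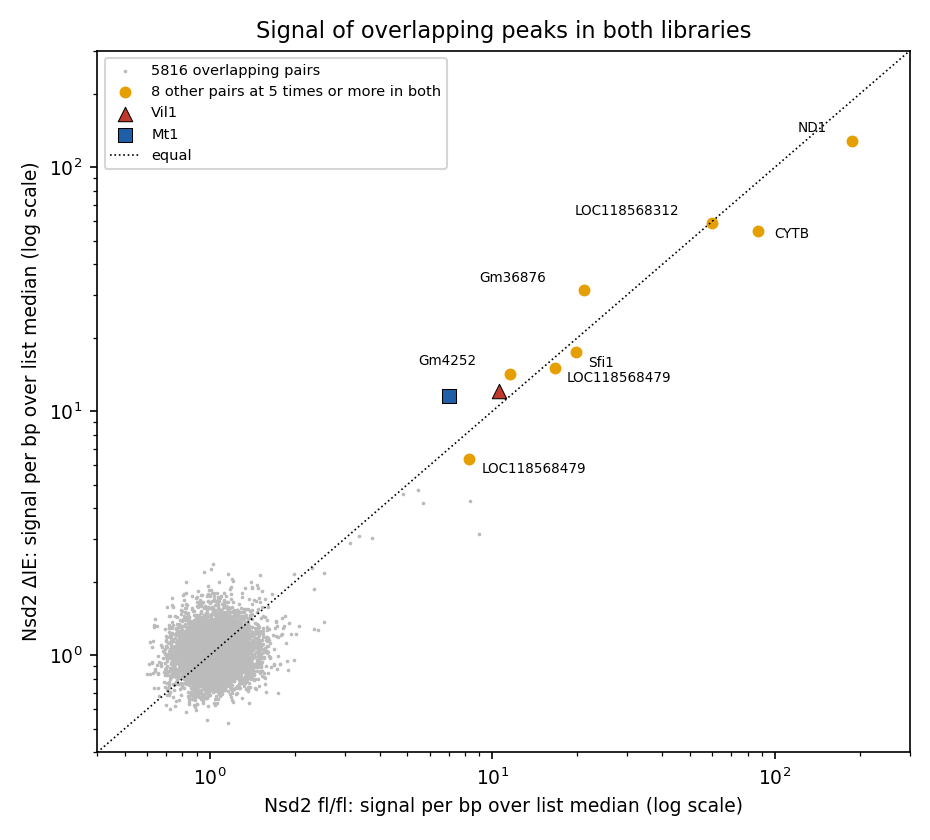
Signal per bp over the list median in *Nsd2* fl/fl (x) and *Nsd2* ΔIE (y), both on log scales, for all 5816 pairs and the 10 pairs at 5 times or more in both libraries; the dotted line marks equal values. *Vil1*, at 10.6 and 12.2, lies near the line and *Mt1*, at 7.01 and 11.5, above it, and both are apart from the mass of pairs near 1.

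Genes with related roles did not show such signal in these lists. Members of the villin and gelsolin family sever, cap or bundle actin filaments. By the authors' gene name, 5 of 8 of these genes had a peak in *Nsd2* fl/fl colon and 7 of 8 in *Nsd2* ΔIE. By the same naming, 30.9% and 32.9% of all protein-coding genes in the gene table had one. By overlap with the gene body or 3 kb to either side, 6 of the family had a peak in each library. No share over all genes was computed for that count. Outside *Vil1* the signal of the family ran from 5.39 to 7.76 per bp over 10 *Nsd2* fl/fl peaks, the highest at the promoter of *Vill*, which encodes a villin-like protein. Over 10 *Nsd2* ΔIE peaks it ran from 3.78 to 8.57, the highest annotated to *Capg*, which encodes an actin-capping protein. That peak lay in an exon of *Elmod3*, 18403 bp from the *Capg* start. *Gsn*, the gene of gelsolin, had 4 and 2 peaks, all between 5.63 and 7.17 per bp. *Svil*, which encodes supervillin, had 4 peaks in each library.

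In the list of 17 further brush border genes, 12 had a peak in *Nsd2* fl/fl colon and 8 in *Nsd2* ΔIE, with 8 in both. Of all protein-coding genes, 30.9% and 32.9% had one by the same gene name. By overlap with the gene body or its 3 kb flanks the counts were 12 and 10. No share over all genes was computed for these counts or for genes with a peak in both libraries. Their signal ran from 4.28 to 9.60 per bp in *Nsd2* fl/fl colon and from 4.80 to 8.06 in *Nsd2* ΔIE. The highest in *Nsd2* fl/fl was at *Cdhr5*, which encodes a protocadherin that links microvilli, with 1.56 times the median. In *Nsd2* ΔIE it was a peak annotated to *Lct*, the gene of lactase, with 1.27 times. That peak lay in an exon of *Mcm6*, at -6254 bp from the *Lct* start. *Myo1a*, which encodes a microvillar myosin, had 7.30 per bp in *Nsd2* fl/fl colon and no peak in *Nsd2* ΔIE. Most *Nsd2* fl/fl peaks overlapped none in *Nsd2* ΔIE.

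For metal handling, 7 of 19 genes had a peak in *Nsd2* fl/fl colon and 4 of 19 in *Nsd2* ΔIE. The share of all protein-coding genes with a peak by the authors' gene name was 30.9% and 32.9%. When peaks were given to a gene by overlap with its body or 3 kb to either side, in place of the authors' gene name, the counts were 5 and 6, so that the order of the libraries turned. No share over all genes was computed for the counts by overlap. *Mtf1*, whose product binds the metal response element, had 4 peaks by gene name in each library. They had between 5.59 and 6.66 per bp in *Nsd2* fl/fl colon and between 4.47 and 7.52 in *Nsd2* ΔIE. Of these, the *Nsd2* fl/fl peak at -14220 bp from the *Mtf1* start lay in an exon of *Inpp5b*. So did the *Nsd2* ΔIE peaks at -14569 bp and -6483 bp. A promoter peak of *Mtf1* was listed in *Nsd2* fl/fl only, but most *Nsd2* fl/fl peaks overlapped none in *Nsd2* ΔIE. *Slc39a14*, which encodes a zinc importer, had the highest signal of this list in *Nsd2* ΔIE, 8.18 per bp. *Slc11a2*, which encodes an importer of iron, had the highest in *Nsd2* fl/fl, 7.58, in an intergenic peak at -8212 bp from its start. No gene of these lists other than *Vil1* and *Mt1* reached 5 times the list median, which 0.0701% and 0.0425% of all peaks did.

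Markers of cell types were described in the same way. Of 15 epithelial markers, 7 had a peak in *Nsd2* fl/fl colon and 9 in *Nsd2* ΔIE, among them *Muc2* and *Cdx1* in both, and their signal did not exceed 8.58 and 9.60 per bp. Of 8 immune markers 2 and 3 had a peak, and of 9 stromal markers 3 in each, with at most 7.97 and 8.80 per bp. Over all protein-coding genes the share with a peak was 30.9% and 32.9%, and nothing is read from the marker counts. Peaks of H3K36me2 do not measure expression, so the share of epithelium in the tissue cannot be taken from them, and fewer cells with the mark and less of it per cell cannot be told apart.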

How the data were processed

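Colon H3K36me2 CUT&Tag libraries of 1 *Nsd2* fl/fl and 1 *Nsd2* ΔIE sample were analysed from the peak lists that the authors deposited. The submitters' processing notes name Bowtie2, SEACR, ChIPseeker and deepTools without versions or settings. They also name hg38, a human build, while the chromosomes and genes of the lists are those of the mouse. The starts of *Vil1* and *Mt1* differ from those in the GRCm38.p6 gene table. The length of *Vil1* is the same, and *Mt1* is 1239 bp in the lists and 1445 bp in the table. Coordinates are therefore given as the lists print them. The deposited signal of a peak is a whole number, which SEACR sums over the region. Scaling to depth, a control library and the number of reads are not given in the sources used here, so depth sets no precision.

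Peaks were taken by the authors' gene name. Signal was divided by width and by the median of its list. Neighbours lay within 100 kb, pairs overlapped by at least 1 bp, and 5 times the median was called strong. Wilson intervals cover counting error only. Genes were named if a peak lay within 100 kb, if a peak was strong in both libraries, if most like in signal, or from the lists (at most 8 each by signal), and not all of them are described. Members and lists were chosen with earlier results of these data known. With 1 library per genotype no test was made. Functions were tested on simulated lists. Python 3.11.15, numpy 2.4.6, pandas 2.3.3, scipy 1.17.1 and matplotlib 3.10.9 were used.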

Additional observations from a re-analysis of the deposited data

How the results depend on the processing

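Alternatives gave 54 values. Of these, 43 stayed within 1.5 times their main value, or for shares within the Wilson interval, and 11 moved further. Of single values, only the ratios of signal between the libraries could change direction, and none did. Between the libraries, the order of gene counts turned for metal handling, from 7 and 4 genes to 5 and 6 with peaks given by overlap with the gene body or 3 kb to either side, and the villin family went from 5 and 7 to 6 and 6. Gene bodies were known only for genes named in either list, and no share over all genes was computed for the counts by overlap. Over the lowest signal per bp of the list in place of the median, the signal was 19.6 times (*Vil1*) and 13.0 times (*Mt1*) in *Nsd2* fl/fl, and 30.5 and 28.8 times in *Nsd2* ΔIE, as a lower reference gives by construction. At least 10 times the median was reached by 8 *Nsd2* fl/fl peaks, of which *Mt1* with 7.01 is not one, and at least 3 times by 17 *Nsd2* ΔIE peaks. On chromosomes 1 to 19 and X alone, an alternative chosen after seeing the data, 9 and 6 peaks were strong. With a reciprocal overlap of 50%, 3.08% of pairs had edges as close as *Vil1* and 8.72% as close as *Mt1*, and among pairs of at least 10 kb, also chosen after seeing the data, 15.4% were as close as *Vil1*. With *Nsd2* ΔIE over *Nsd2* fl/fl, the ratio ran from 1.15 to 1.56 at *Vil1* and from 1.38 to 2.22 at *Mt1* across the alternatives run, above 1 in each. The excess of *Mt1* over neighbours in *Nsd2* ΔIE has no value at 50 or 100 kb, since no peak was listed there. No paired analysis was possible because there was a single library of each genotype. Unlisted regions may carry signal under the limit of their list.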
